A study of Macaca mulatta with 10 samples.

Results

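Skeletal muscle of a hyperinsulinemic rhesus monkey, rhesus_950807 in the labels, was compared with skeletal muscle of 4 control monkeys. Where 4 control values follow each other, they stand in the order rhesus_920401, rhesus_940129, rhesus_940313 and rhesus_950509. The comparison used the 5 muscle libraries of the 10 libraries sequenced, and 8306 of the 28595 genes counted, namely those with a mean of at least 1 RPKM over the 5 libraries. All 5 animals were male *Macaca mulatta*, held in one facility on the same chow. The hyperinsulinemic monkey had an extremely high insulin level, was obese and insulin resistant, and carried a heterozygous nonsense mutation of *PRKD2* (K410X), as the paper describes, while the controls carried no such mutation and had no such insulin level. The hyperinsulinemic side was therefore a single library of a single animal, and its insulin level, body weight and genotype cannot be told apart. Neither the muscle sampled nor the feeding state at sampling is stated in the labels or the paper's methods. Each animal also gave an adipose library, used below to ask whether a muscle difference also held in another tissue of the same animal.

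Skeletal muscle clears most of the glucose that leaves the blood under insulin. Insulin binding to its receptor activates the kinase Akt, which inhibits the proteins TBC1D4 and TBC1D1 and so lets the glucose transporter GLUT4, the product of *SLC2A4*, reach the cell surface. Muscle is also a mosaic of slow fibers, which are rich in mitochondria and resist fatigue, and fast fibers, which rely more on glycolysis. Each fiber type has its own isoforms of myosin, troponin and the calcium pump, so their mRNAs read out the fiber makeup of a piece of muscle. Protein kinase D phosphorylates class IIa histone deacetylases, which releases the MEF2 transcription factors that drive muscle genes.

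RPKM is a read count divided by the length of the transcript and by the mapped total of the library. Mapped reads numbered 35682861 to 43268985 in control muscle, with 52.0% to 62.1% of them in genes, and 33961486 in the hyperinsulinemic monkey, with 64.6% in genes. Read counts were scaled by TMM, a scaling between libraries that assumes most genes alike, and each gene was given the quasi-likelihood test of edgeR (both directions), with Benjamini-Hochberg adjustment over all 8306 genes. The hyperinsulinemic monkey was assumed to vary as the controls do. A single gene in 1 animal against 4 cannot reach an exact permutation p below 0.2, so each gene is also described by whether the hyperinsulinemic monkey lay above or below every control after TMM scaling. All 6 skeletal muscle markers that were tested, *ACTA1*, *CKM*, *MB*, *TNNT3*, *DES* and *TTN*, lay within the control range in the hyperinsulinemic monkey, with a summed level of 66498 RPKM against 51874 to 66786 RPKM in the controls.

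A pair of the control libraries stood apart. Control rhesus_940129 was rich in slow fiber mRNA, with a summed 4700 RPKM over 10 slow fiber genes against 538 to 778 RPKM in the other controls. Control rhesus_940313 was poor in connective tissue and macrophage mRNA, with a median deviation from the control mean of −0.58 on the log2 scale over 8 fibroblast markers and −0.93 over 6 macrophage markers. Without rhesus_940313, edgeR called 14 genes, among them *BDH1*, *CA3*, *ANKRD1*, *CSRP3*, *SPP1* and *CRABP2*, while with any other single control left out it called 0.

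No gene passed edgeR's test, 0 of 8306 (0%), and the smallest adjusted p was 0.0588, for *BDH1*. At an unadjusted p under 0.05 there were 754 genes (9.08%), of which 315 (3.79%) were higher and 439 (5.29%) lower in the hyperinsulinemic monkey. DESeq2, another count model, called 88 genes (1.06%), of which 28 (0.337%) were higher and 60 (0.722%) lower. The hyperinsulinemic monkey lay above every control in 2016 genes (24.3%) and below every control in 1974 genes (23.8%), so that 48% of all genes tested lay outside the control range. Far fewer lay outside by a factor of 2 or more, 54 above (0.65%) and 110 below (1.32%). The median log2 difference over all genes was −0.03, and scaling to the mapped totals in place of TMM moved it to 0.14 and moved the share of outside genes that lay above from 50.5% to 69.7%.

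**Figure D1:**
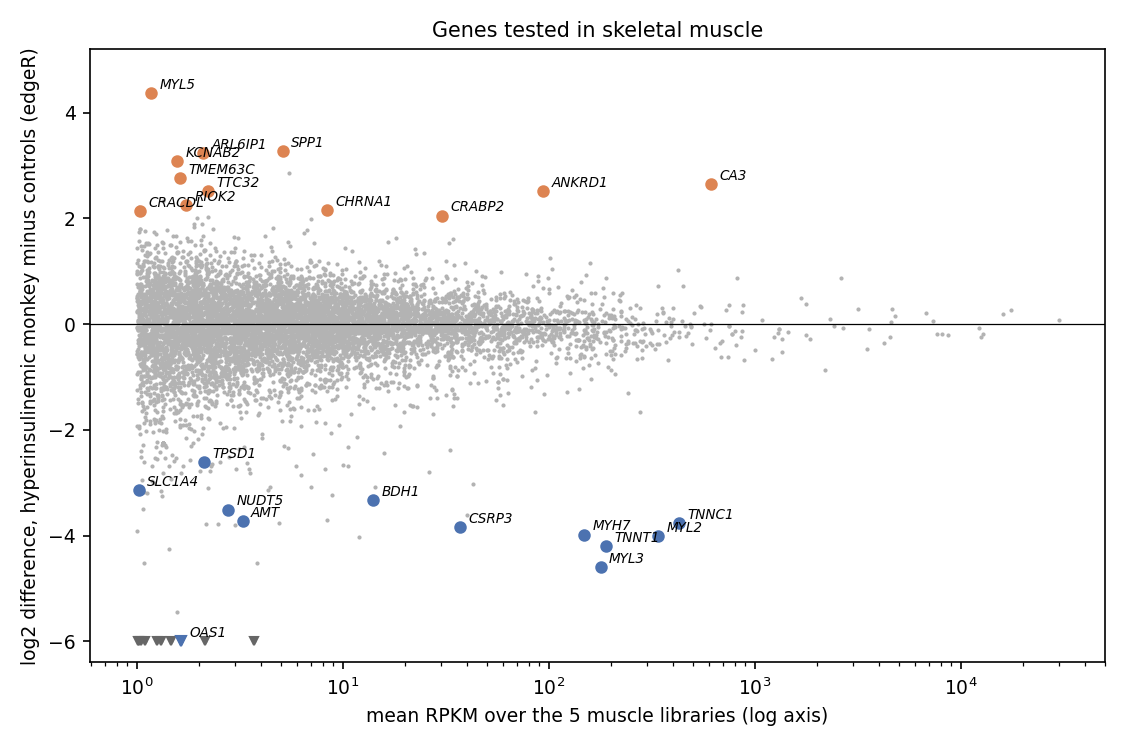
Each point is a gene tested in skeletal muscle, with its mean RPKM over the 5 libraries on a log axis and the edgeR log2 difference of the hyperinsulinemic monkey from the 4 controls on the other axis. Orange points are the 12 named genes furthest above the highest control and blue points the 12 furthest below the lowest control, triangles are genes beyond −6, and the cluster of *MYH7*, *MYL2*, *MYL3*, *TNNC1* and *TNNT1* stands apart from all other abundant genes.

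The genes furthest outside the control range were ranked by the gap to the nearest control on a log2 scale, among genes with a symbol. The 12 furthest above were, from the largest gap, *SPP1*, *KCNAB2*, *MYL5*, *TMEM63C*, *CA3*, *ANKRD1*, *ARL6IP1*, *TTC32*, *CRABP2*, *CHRNA1*, *RIOK2* and *CRACDL*, with gaps of 2.54 down to 1.57. The 12 furthest below were *BDH1*, *AMT*, *MYL3*, *MYL2*, *TNNT1*, *SLC1A4*, *NUDT5*, *OAS1*, *TNNC1*, *MYH7*, *CSRP3* and *TPSD1*, with gaps of 2.96 down to 1.81. Of the 12 above, 6 had a control mean under 1 RPKM and passed the low-level filter only through the hyperinsulinemic monkey, so that a gap was built into their selection. Just inside that filter lay *CASP12*, at a mean of 1.0001 RPKM over the 5 libraries, and just outside it *SMURF1*, at 0.9998 RPKM.

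**Figure D2:**
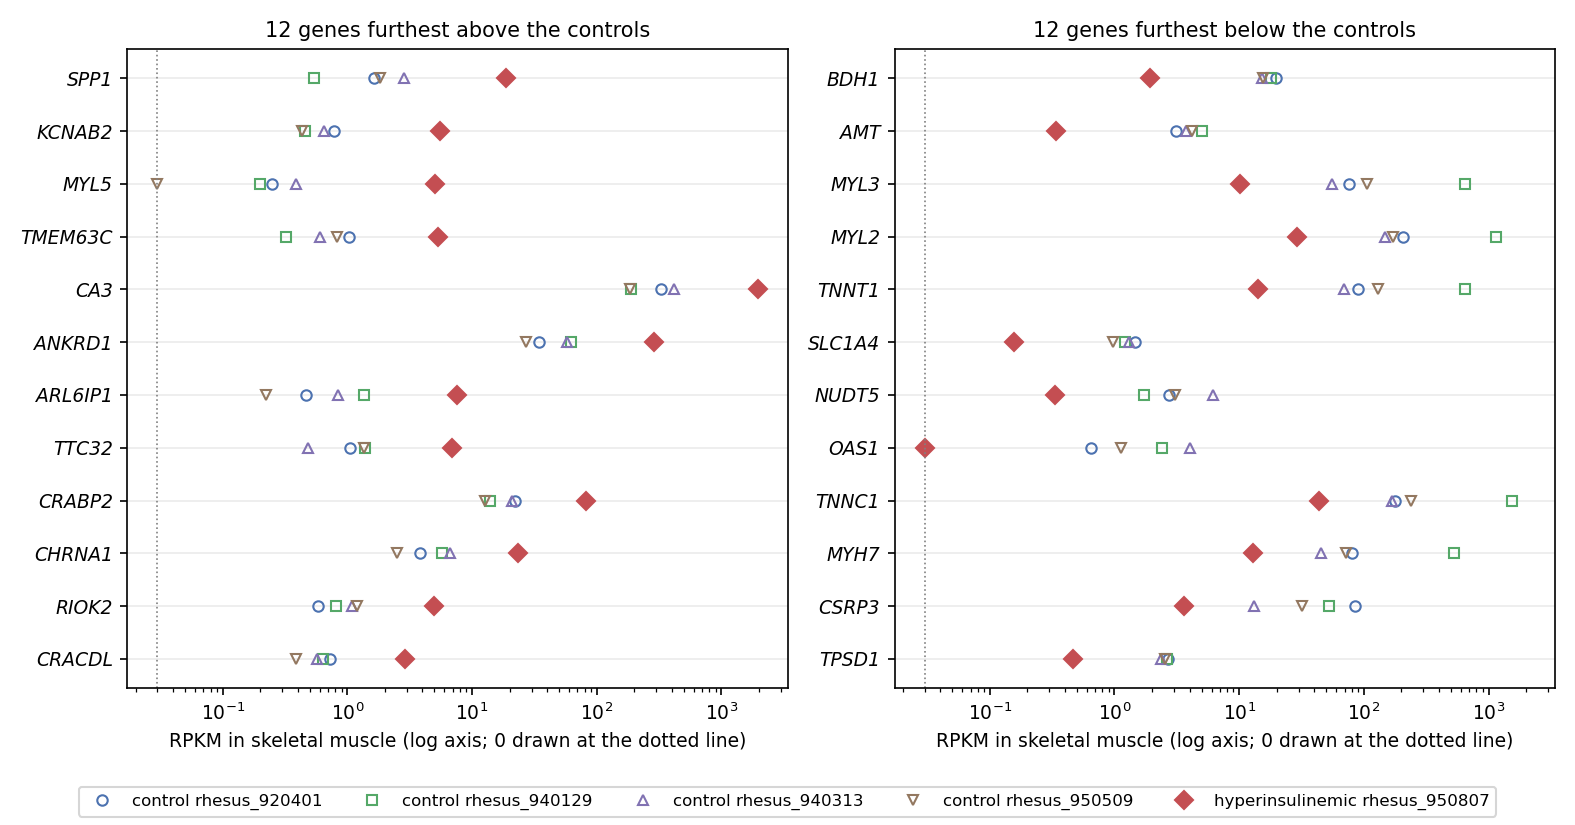
RPKM in skeletal muscle, on a log axis, of the 12 named genes furthest above the controls and the 12 furthest below, with a marker for each of the 4 control monkeys and a red diamond for the hyperinsulinemic monkey. *CA3* stands at 1952 RPKM against at most 418 RPKM in a control, *OAS1* is drawn at 0, and control rhesus_940129 stands alone at the right of the other controls in *MYL3*, *MYL2*, *TNNT1*, *TNNC1* and *MYH7*.

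*PRKD2* (ENSMMUG00000017927), the gene that carries the mutation, ranked 20th among the genes below the controls. The annotation puts it on the minus strand of chromosome 19, bases 53012284 to 53064125. No source used here names the genome build behind these coordinates. Its level was 1.14, 1.46, 1.21 and 1.79 RPKM in the 4 controls and 0.387 RPKM in the hyperinsulinemic monkey, from 42 reads. Every control stood well above the hyperinsulinemic monkey, and the controls overlapped nowhere with it. The log2 difference of −2.03 (standard error 0.583) did not pass the edgeR test (adjusted p 0.482), and its DESeq2 adjusted p was 0.0314. The difference in muscle minus that in adipose tissue was −1.44 (95% interval −2.95 to 0.07, edgeR adjusted p 0.853), and was not shown to differ from 0. Adipose tissue held 3.66 RPKM of *PRKD2* in the hyperinsulinemic monkey, within the 3.27 to 6.12 RPKM of the controls. The log2 difference there was −0.62 (95% interval −1.80 to 0.56). The paralogs *PRKD1* and *PRKD3* were under the low-level filter in muscle. *PRKD1* had 0.247 to 0.367 RPKM in the controls and 0.809 RPKM in the hyperinsulinemic monkey, and *PRKD3* 0.274 to 0.620 RPKM and 0.363 RPKM.

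Slow fiber mRNA was the group furthest below the controls. Of 10 slow fiber genes tested, 9 lay below every control in the hyperinsulinemic monkey and 0 above, against 23.8% of all genes below, and the tenth, *MYL6B*, lay within. The median log2 difference over the 10 genes was −3.77, or −2.31 without control rhesus_940129, and lay between −4.10 and −4.03 when any other control was left out. No member passed edgeR, DESeq2 called 1 (*TPM3*), and 8 had an unadjusted p under 0.05. The summed level of the list was 157 RPKM in the hyperinsulinemic monkey against 538 to 4700 RPKM in the controls. *MYBPC1*, the myosin-binding protein C of slow fibers, was counted with the sarcomere genes instead, and lay above every control.

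The slow myosin chains led this group. *MYL3*, the slow essential light chain, was at 76.0, 648, 55.1 and 105 RPKM in the 4 controls and at 10.2 RPKM in the hyperinsulinemic monkey. *MYL2*, the slow regulatory light chain, was at 208, 1145, 147 and 172 RPKM in the same controls and at 29.0 RPKM in the hyperinsulinemic monkey. *MYH7*, the slow myosin heavy chain, was at 80.1, 531, 45.5 and 72.003 RPKM against 12.9 RPKM, from 2501 reads. In all 3 genes control rhesus_940129 stood several times above the other controls, and the hyperinsulinemic monkey stood clearly under the lowest of them, rhesus_940313. The log2 differences were −4.60 (standard error 1.53) for *MYL3*, −4.003 (1.28) for *MYL2* and −3.98 (1.44) for *MYH7*, with edgeR adjusted p of 0.482 to 0.496. Without control rhesus_940129 they were −3.16, −2.78 and −2.55, with adjusted p of 0.104 to 0.203.

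The slow troponins were likewise highest in rhesus_940129 and lowest in the hyperinsulinemic monkey. *TNNT1*, slow troponin T, was at 69.7 to 651 RPKM in the controls and 14.3 RPKM in the hyperinsulinemic monkey, a log2 difference of −4.20 (standard error 1.35, adjusted p 0.482). *TNNC1*, the troponin C of slow and cardiac muscle, was at 168 to 1530 RPKM and 43.3 RPKM, a log2 difference of −3.76 (1.39, adjusted p 0.497). Without control rhesus_940129 these were −2.96 and −2.36. *ATP2A2*, the calcium pump of slow fibers, was at 12.8 to 149 RPKM in the controls and 7.12 RPKM in the hyperinsulinemic monkey, so that here the gap to control rhesus_940313 was small. *TPM3*, the tropomyosin gene whose muscle isoform is that of slow fibers, differed from the rest of the list. It was hardly higher in rhesus_940129 than in the other controls, and adipose tissue held more of it, 42.2 to 84.2 RPKM over the 5 animals, so that its gene-level count does not single out the slow isoform. Its muscle controls had 5.06, 6.70, 4.91 and 5.53 RPKM and the hyperinsulinemic monkey had 2.41 RPKM, a log2 difference of −1.38 (standard error 0.376) with an adjusted p of 0.460 in edgeR and 0.0356 in DESeq2.

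Fast fiber mRNA, by contrast, lay near that of the controls. Of 11 genes tested, 9 lay within the control range, *MYOZ1* lay above it with a gap of 0.00 and *MYH4* below it with a gap of 0.03. Their median log2 difference was 0.09. *MYH4*, the heavy chain of the fastest fibers, was at 144, 121, 177 and 131 RPKM in the controls and 131 RPKM in the hyperinsulinemic monkey. *PVALB*, the calcium buffer of fast fibers, was at 233, 96.7, 923 and 116 RPKM in the controls and 759 RPKM in the hyperinsulinemic monkey. *TPM1*, fast tropomyosin, was at 1324 to 2438 RPKM in the controls and 2354 RPKM in the hyperinsulinemic monkey. For *PVALB* and *TPM1*, the hyperinsulinemic monkey and control rhesus_940313 both stood above the other 3 animals, and without rhesus_940313 the log2 difference of *PVALB* was 2.14 in place of 1.01.

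**Figure D3:**
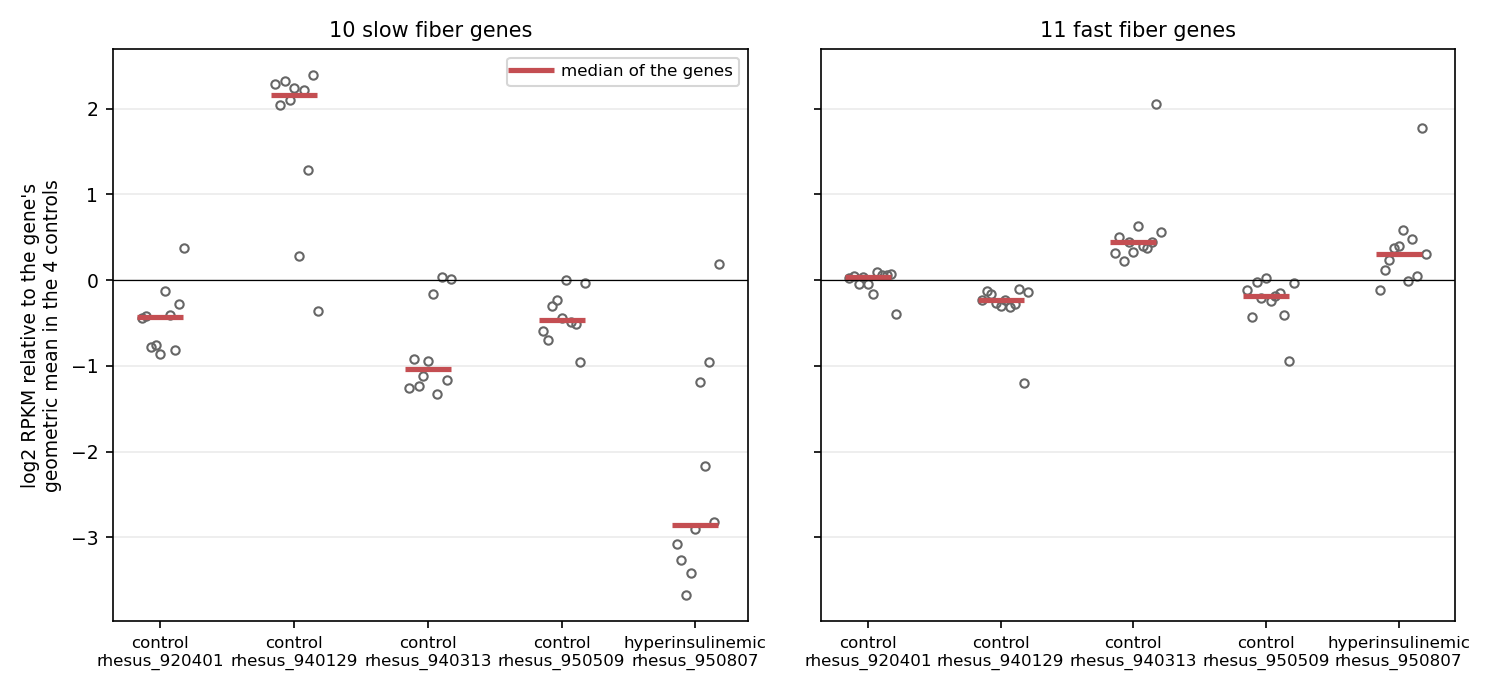
Log2 RPKM of the 10 slow and 11 fast fiber genes tested, each relative to its own geometric mean in the 4 controls, by animal, with circles for genes and red bars for their median. Most slow fiber genes are high in control rhesus_940129 and lie lowest in the hyperinsulinemic monkey, while the fast fiber genes stay close to 0 in all 5 animals, with *PVALB* the exception at the top in rhesus_940313 and rhesus_950807.

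Genes of the shared framework of the sarcomere did not lie with the slow isoforms. Of 12 Z-disc and sarcomere genes, 5 lay above every control (24.3% of all genes did) and 0 below, with a median log2 difference of 0.13. *XIRP2*, an actin-binding protein of the cell ends, was at 9.68 to 23.9 RPKM in the controls and 35.6 RPKM in the hyperinsulinemic monkey, a log2 difference of 0.76 (standard error 0.425, adjusted p 0.634). *MYBPC1*, myosin-binding protein C of slow fibers, was at 286 to 608 RPKM and 709 RPKM (0.71, adjusted p 0.635). *MYBPC1* was counted in this list and not among the slow fiber genes, and lay above the controls by a gap of 0.05. *LDB3* and *MYPN*, Z-disc proteins, had log2 differences of 0.31 and 0.26. Excitation-contraction genes also stayed near the controls, with 1 of 12 above and 1 below, against 24.3% and 23.8% of all genes. Their median was 0.06. The 1 above was *TRDN*, the anchor of the calcium release complex, at 62.3, 82.2, 72.2 and 111 RPKM in the controls and 192 RPKM in the hyperinsulinemic monkey, a log2 difference of 1.04 (standard error 0.332, adjusted p 0.482). The 1 below was *CLCN1*, the muscle chloride channel, at 15.0 to 20.1 RPKM and 13.9 RPKM. *CACNA1S*, the voltage sensor, and *JSRP1*, a protein of the junctional membrane, lay within the control range, with log2 differences of −0.42 and 0.24.

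*BDH1* gave the largest gap of all named genes. It encodes the mitochondrial enzyme that interconverts the ketone bodies acetoacetate and β-hydroxybutyrate, and lies on chromosome 2 from 187862430 to 187897677 on the plus strand (ENSMMUG00000002021). Its level was 19.6, 18.1, 15.4 and 15.5 RPKM in the 4 controls and 1.92 RPKM in the hyperinsulinemic monkey, on 87 reads against 752 to 1013 reads in the controls (for the 87 reads, exact Poisson 95% interval 69.7 to 107, counting error only). The controls lay close together and the hyperinsulinemic monkey lay far from them. This was a 10.1-fold lower level, or −3.33 on the log2 scale (standard error 0.377, 95% interval −4.18 to −2.48). It just missed the edgeR threshold (adjusted p 0.0588, or 0.0198 without rhesus_940313), its DESeq2 adjusted p was 1.77e-16, and over 13 alternative settings the adjusted p ran from 1.77e-16 to 0.23. In adipose tissue *BDH1* was at 2.56 RPKM in the hyperinsulinemic monkey and 7.04 to 16.5 RPKM in the controls, again below each of them. The difference in muscle minus that in adipose tissue, −1.20 (95% interval −2.68 to 0.28, adjusted p 0.892), was not shown to differ from 0.

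The rest of the ketone body genes lay less far away. Of 5 tested, 2 lay below every control and 0 above, against 23.8% and 24.3% of all genes. Their median log2 difference was −1.04, or −0.67 without rhesus_940129. *OXCT1*, the enzyme that activates ketone bodies for oxidation, was at 2.21 to 8.32 RPKM in the controls and 2.43 RPKM in the hyperinsulinemic monkey, within their range. *SLC16A1*, a transporter of lactate and ketone bodies, was at 0.670 to 3.67 RPKM and 0.778 RPKM, also within it. In both genes the highest control was rhesus_940129, and control rhesus_940313 lay under the hyperinsulinemic monkey.

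*CA3* was the most abundant gene among the 12 above. It encodes carbonic anhydrase III, the abundant cytosolic form of muscle, and lies on chromosome 8 from 87962785 to 87972891 on the plus strand. Its level was 328, 187, 418 and 184 RPKM in the 4 controls and 1952 RPKM in the hyperinsulinemic monkey, from 114674 reads. The highest control, rhesus_940313, thus still lay far below the hyperinsulinemic monkey. On the log2 scale the difference was 2.64 (standard error 0.375, 95% interval 1.80 to 3.49), and the adjusted p was 0.126 in edgeR, 0.0198 in edgeR without rhesus_940313, and 5.38e-06 in DESeq2. With any control other than rhesus_940313 left out, edgeR did not call *CA3*. Adipose tissue held almost none of it, with 0.0830 RPKM in the hyperinsulinemic monkey and at most 2.52 RPKM in a control. The neighboring gene *CA2*, which was named after its values were seen and lies on the same strand from 87987815 to 88005846, was at 6.06, 5.40, 2.89 and 2.18 RPKM in the controls and 18.5 RPKM in the hyperinsulinemic monkey, a log2 difference of 1.99 (standard error 0.463, adjusted p 0.383).

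*ANKRD1*, a cardiac and skeletal muscle protein that binds titin and is known for its induction by stretch and injury, lies on the minus strand of chromosome 9 (90442419 to 90451391) and was at 34.2, 62.4, 57.6 and 27.1 RPKM in the 4 controls and at 290 RPKM in the hyperinsulinemic monkey. The controls differed little beside this gap. Its log2 difference was 2.52 (standard error 0.353, 95% interval 1.73 to 3.31), and the adjusted p values were 0.126 in edgeR, 0.0323 in edgeR without rhesus_940313, and 5.38e-06 in DESeq2. *CHRNA1*, the alpha subunit of the muscle acetylcholine receptor, was at 3.81, 5.79, 6.70 and 2.52 RPKM in the controls and 23.3 RPKM in the hyperinsulinemic monkey, a log2 difference of 2.16 (standard error 0.396, adjusted p 0.282). *CSRP3*, the muscle LIM protein that is most abundant in slow fibers and heart, lay on the other side, at 85.4, 52.3, 13.0 and 32.1 RPKM in the controls and 3.62 RPKM in the hyperinsulinemic monkey, a log2 difference of −3.84 (0.973, adjusted p 0.425, or 0.0323 without rhesus_940313). With any control other than rhesus_940313 left out, edgeR called neither *ANKRD1* nor *CSRP3*. Over the whole stress and regeneration list, 3 of 12 genes lay above every control and 1 below, with a median of −0.11. Of all genes, 24.3% lay above and 23.8% below. *RUNX1*, a transcription factor raised in denervated muscle, was the third above, at 0.755 to 1.19 RPKM in the controls and 1.88 RPKM in the hyperinsulinemic monkey (0.75, adjusted p 0.653). Its control mean was 0.991 RPKM, so that it passed the low-level filter only through the hyperinsulinemic monkey. Of the atrophy ligase list, 1 of 5 lay above and 2 below, beside the same shares of all genes, with a median of −0.01.

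*SPP1*, osteopontin, a secreted phosphoprotein made by macrophages and injured muscle among others, had the largest gap above the controls. It was at 1.65, 0.543, 2.85 and 1.84 RPKM in the controls and 18.7 RPKM in the hyperinsulinemic monkey, a log2 difference of 3.27 (standard error 0.563, adjusted p 0.236, or 0.0458 without rhesus_940313). Adipose tissue held 29.3 RPKM in the hyperinsulinemic monkey and 2.79 to 17.0 RPKM in the controls. *CRABP2*, a carrier of retinoic acid, was at 22.1, 14.0, 21.1 and 12.7 RPKM in control muscle and 81.5 RPKM in the hyperinsulinemic monkey (log2 difference 2.05, standard error 0.307, adjusted p 0.147, or 0.0458 without rhesus_940313). *KCNAB2*, a potassium channel subunit, was at 0.432 to 0.784 RPKM in control muscle and 5.56 RPKM in the hyperinsulinemic monkey, a log2 difference of 3.09 (0.485, adjusted p 0.173). Its control mean was under 1 RPKM, so that it passed the low-level filter only through the hyperinsulinemic monkey. With any control other than rhesus_940313 left out, edgeR called neither *SPP1* nor *CRABP2*.

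The remaining genes of the 12 above were scarce in control muscle. *MYL5*, a myosin light chain, had 0 to 0.385 RPKM in the controls, from at most 7 reads, and 5.05 RPKM in the hyperinsulinemic monkey, from 72 reads. *TMEM63C*, a membrane protein, had 0.321 to 1.04 RPKM and 5.38 RPKM. *ARL6IP1*, a protein that shapes the endoplasmic reticulum, had 0.221 to 1.35 RPKM and 7.64 RPKM. *TTC32* had 0.481 to 1.37 RPKM in the controls and 6.89 RPKM in the hyperinsulinemic monkey, *RIOK2*, a kinase of ribosome assembly, 0.580 to 1.203 RPKM and 4.99 RPKM, and *CRACDL* 0.388 to 0.730 RPKM and 2.89 RPKM. Their adjusted p in edgeR lay between 0.246 and 0.448, so none passed the test.

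Of the 12 genes furthest below the controls, 2 act on amino acids. *AMT*, the aminomethyltransferase of the glycine cleavage system, was at 3.10, 4.99, 3.72 and 4.22 RPKM in the 4 controls and 0.340 RPKM in the hyperinsulinemic monkey, a level resting on 14 reads (exact Poisson 95% interval 7.65 to 23.5). Its log2 difference was −3.72 (standard error 0.647, adjusted p 0.236, DESeq2 5.38e-06). *SLC1A4*, a transporter of neutral amino acids, was at 1.46, 1.22, 1.31 and 0.967 RPKM in the controls and 0.157 RPKM in the hyperinsulinemic monkey, from 17 reads, a log2 difference of −3.14 (0.627, adjusted p 0.342). In both, the controls lay close together and far above the hyperinsulinemic monkey. Adipose tissue showed no such gap, with 9.29 RPKM of *SLC1A4* in the hyperinsulinemic monkey against 4.21 to 7.22 RPKM in the controls, and 11.7 RPKM of *AMT* against 6.80 to 18.4 RPKM.

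A wider list of genes of glycine, alanine and glutamate metabolism, compiled after these values were seen, is described without a test. Of its 12 genes tested, 6 lay below every control and 0 above, against 23.8% and 24.3% of all genes. The 6 below include *AMT* and *SLC1A4*, whose low values were known when the list was compiled. *GOT2*, also among the 6, was below every control only after TMM scaling. The median log2 difference over the 12 genes was −0.63. *GPT*, which makes alanine from pyruvate, was at 25.4, 22.3, 22.002 and 35.1 RPKM in the controls and 10.01 RPKM in the hyperinsulinemic monkey (log2 difference −1.58, standard error 0.390). *GLUL*, glutamine synthetase, was at 172, 157, 120 and 104 RPKM in the controls and 63.7 RPKM in the hyperinsulinemic monkey (−1.29, 0.344). Of 15 genes of branched-chain amino acid breakdown, 2 lay above and 4 below, beside the same shares of all genes. Their median was −0.11, or 0.13 without rhesus_940129. The furthest of them was *BCAT2*, the mitochondrial transaminase that starts this pathway, at 23.5, 23.6, 22.9 and 12.3 RPKM in the controls and 7.97 RPKM in the hyperinsulinemic monkey (−1.53, 0.393), where control rhesus_950509 also lay well under the other 3.

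The insulin signaling list held genes on both sides of the controls, more of them below than above. Its median deviation from the control mean was −0.20 on the log2 scale in the hyperinsulinemic monkey, against −0.14 to 0.19 in the controls. Of 17 genes tested, 3 lay above every control and 7 below, against 24.3% and 23.8% of all genes, with a median log2 difference of −0.24. Among those below, *AKT2* and *MTOR* were below every control only after TMM scaling, and lay within the control range in RPKM. The gene furthest above was *TBC1D1*, the Akt and AMPK target that restrains GLUT4, at 4.43, 4.27, 2.70 and 3.496 RPKM in the controls and 12.3 RPKM in the hyperinsulinemic monkey, a log2 difference of 1.54 (standard error 0.303, adjusted p 0.342, DESeq2 0.00709). Its relative *TBC1D4* lay above as well, with a log2 difference of 0.61. *GRB10*, an adaptor that inhibits the insulin receptor, was at 6.96 to 12.4 RPKM in the controls and 4.37 RPKM in the hyperinsulinemic monkey (−1.19, 0.352). *IRS2*, a receptor substrate, was at 1.31 to 1.94 RPKM and 0.995 RPKM (−0.84), and *FOXO1*, a transcription factor that Akt keeps out of the nucleus, at 0.813 to 1.60 RPKM and 0.627 RPKM (−1.09). The receptor *INSR* itself lay within the control range, at −0.53.

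*SLC2A4*, the GLUT4 gene, lay below every control. It was at 148, 147, 148 and 112 RPKM in the 4 controls and 82.3 RPKM in the hyperinsulinemic monkey, a log2 difference of −0.93 (standard error 0.275, 95% interval −1.54 to −0.31, adjusted p 0.482). Adipose tissue held 34.5 RPKM in the hyperinsulinemic monkey and 50.9 to 139 RPKM in the controls. Of the 15 glucose uptake and glycogen genes, 4 lay above and 4 below, near the 24.3% and 23.8% of all genes. The median over the 15 genes was −0.01. Genes of the glycogen phosphorylase cascade differed among themselves. *PHKG1*, the catalytic subunit of phosphorylase kinase, was at 155 to 184 RPKM in the controls and 122 RPKM in the hyperinsulinemic monkey (−0.65), on a locus that overlaps *SUMF2* on the opposite strand, whereas its regulatory subunit *PHKB* was at 45.1 to 57.8 RPKM and 77.6 RPKM (0.46). Neither passed the test, with adjusted p of 0.510 and 0.623.

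Of 12 glycolysis and pyruvate genes, 3 lay above the controls and 3 below, near the 24.3% and 23.8% of all genes. Their median was −0.13. *PFKFB3*, which makes the activator of phosphofructokinase, was at 38.8, 16.3, 16.4 and 19.2 RPKM in the controls and 8.13 RPKM in the hyperinsulinemic monkey, a log2 difference of −1.66 (standard error 0.527, adjusted p 0.482). Control rhesus_920401 stood alone at the top, and without it the difference was −1.29. *LDHA*, lactate dehydrogenase A, was at 221 to 362 RPKM in the controls and 535 RPKM in the hyperinsulinemic monkey (0.72, standard error 0.301, adjusted p 0.527). *PDHB*, a subunit of pyruvate dehydrogenase, was at 30.0 to 35.3 RPKM and 49.7 RPKM (0.47). *PDK4*, the kinase that shuts pyruvate dehydrogenase, spanned 1.06 to 42.5 RPKM among the controls, with 6.56 RPKM in the hyperinsulinemic monkey, well inside that spread.

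Fatty acid oxidation genes were spread on both sides. Of 20 tested, 7 lay above every control and 3 below, against 24.3% and 23.8% of all genes, with a median of −0.01. *CPT1B*, which brings fatty acids to the mitochondrion, was at 10.3 to 15.9 RPKM in the controls and 22.2 RPKM in the hyperinsulinemic monkey (log2 difference 0.63, standard error 0.312, adjusted p 0.594). *ETFDH*, which passes their electrons to the respiratory chain, was at 5.37 to 12.8 RPKM and 18.4 RPKM (0.83). The regulators lay on the other side. *PPARA* was at 2.31, 2.09, 2.02 and 1.88 RPKM in the controls and 1.07 RPKM in the hyperinsulinemic monkey (−1.12, 0.394, adjusted p 0.496), and *PPARD* at 2.60 to 4.55 RPKM and 2.71 RPKM (−0.59), below every control only after TMM scaling.

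Subunits of the respiratory chain lay mostly within or under the control range. Of 26 oxidative phosphorylation genes, 10 lay below every control and 1 above, against 23.8% and 24.3% of all genes, with a median log2 difference of −0.21. *COX4I1*, a subunit of cytochrome c oxidase, was at 233, 215, 185 and 231 RPKM in the controls and 135 RPKM in the hyperinsulinemic monkey (−0.86, standard error 0.288, adjusted p 0.496). *COX7A1*, the muscle isoform of another subunit, was at 1981 to 2853 RPKM and 1467 RPKM (−0.86, 0.2995). *NDUFA9* of complex I was at 33.3 to 42.5 RPKM and 29.3 RPKM (−0.53), and *ATP5F1B* of the ATP synthase at 66.8 to 114 RPKM and 65.1 RPKM (−0.69). For *ATP5F1B* the lowest control, rhesus_940313, almost met the hyperinsulinemic monkey. *NDUFB8*, *NDUFV1*, *SDHA*, *CYC1*, *COX5A* and *COX7B* were below every control only after TMM scaling, and lay within the control range in RPKM.

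Lipid synthesis and droplet genes had 1 of 12 above and 4 below, against 24.3% and 23.8% of all genes, with a median of −0.43. *PLIN5*, a droplet protein that tethers fat to mitochondria, had 0 reads in the hyperinsulinemic monkey and 14 to 35 reads in the controls, at 0.782 to 2.19 RPKM. Taking 3 reads as the upper limit for a count of 0 in that library (one-sided, counting error only), it was at least 7.32-fold lower. *SREBF1*, the transcription factor of fatty acid synthesis, was at 3.57, 5.37, 16.1 and 8.30 RPKM in the controls and 3.02 RPKM in the hyperinsulinemic monkey, and the controls differed more among themselves than the lowest of them differed from the hyperinsulinemic monkey. *MLXIPL*, a glucose-sensing transcription factor, was at 0.375 to 2.27 RPKM and 0.427 RPKM, within the control range. *ME1*, malic enzyme, was the gene above, at 3.84 to 4.54 RPKM in the controls and 6.94 RPKM in the hyperinsulinemic monkey (log2 difference 0.54).

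The list labeled protein kinase D targets held MEF2 factors, *RCAN2*, *CAMK2A* and *CAMK2D* beside the class IIa histone deacetylases. Of its 9 genes tested, 4 lay above every control and 3 below. Of all genes, 24.3% lay above and 23.8% below. The median over the 9 genes was 0.21. *MEF2A* was at 2.74, 4.07, 4.03 and 3.74 RPKM in the controls and 9.55 RPKM in the hyperinsulinemic monkey, a log2 difference of 1.22 (standard error 0.283, adjusted p 0.383, DESeq2 0.0356). *MEF2C* was at 12.9 to 22.5 RPKM and 36.5 RPKM (0.76, 0.305, adjusted p 0.510). *CAMK2D*, a calcium-dependent kinase that also acts on class IIa histone deacetylases, was at 6.85, 5.85, 7.30 and 6.17 RPKM in the controls and 16.5 RPKM in the hyperinsulinemic monkey (1.16, 0.242, adjusted p 0.342, DESeq2 0.0158). The deacetylases themselves went apart, with *HDAC4* above the controls (0.55), *HDAC7* below them (−1.19) and *HDAC5* within their range (−0.07).

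A few kinases were named after their values were seen. *MAP2K6*, which activates p38, was at 0.551, 1.30, 1.34 and 1.44 RPKM in the controls and 5.25 RPKM in the hyperinsulinemic monkey (log2 difference 2.01, standard error 0.529). *PRKAB2*, the AMPK beta subunit of muscle, was at 17.5, 23.8, 21.8 and 20.2 RPKM and 48.5 RPKM (1.05, 0.241). *SIK2*, a relative of AMPK, was at 5.37 to 9.25 RPKM and 2.75 RPKM (−1.57, 0.373). *CAMKK2*, an AMPK kinase, was at 1.71 to 2.40 RPKM and 0.796 RPKM (−1.49, 0.416), but overlaps other genes on the same strand, from which its reads may not be separable. Of 11 genes in the AMPK list, also compiled afterwards, 1 lay above and 5 below, against 24.3% and 23.8% of all genes. Their median was −0.18. Among those below, *PRKAB1*, *PRKAG1* and *SIK3* were below every control only after TMM scaling, and lay within the control range in RPKM.

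Markers of smooth muscle and pericytes, the cells that wrap vessels, lay lower in the hyperinsulinemic monkey. Of 12 tested, 8 lay below every control and 0 above, against 23.8% and 24.3% of all genes, with a median log2 difference of −1.14, and none passed edgeR, while DESeq2 called 2. *TAGLN*, an actin-binding protein, was at 36.1, 36.1, 44.9 and 40.7 RPKM in the controls and 16.8 RPKM in the hyperinsulinemic monkey (−1.40, standard error 0.287, adjusted p 0.342, DESeq2 0.00108). *ACTA2*, smooth muscle actin, was at 44.4, 64.8, 74.4 and 69.0 RPKM and 26.2 RPKM (−1.44, 0.345, adjusted p 0.404, DESeq2 0.00731). *MYH11*, smooth muscle myosin, was at 3.63 to 7.27 RPKM in the controls and 3.05 RPKM in the hyperinsulinemic monkey (−1.19), and *MCAM*, a pericyte adhesion protein, at 8.13 to 13.6 RPKM and 5.36 RPKM (−1.10). *TAGLN* and *MYH11* overlap *PCSK7* and *NDE1* on the opposite strand. *DES*, which skeletal muscle also makes, was within the range. In bulk tissue, fewer cells of a type and less RNA per cell cannot be told apart.

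Endothelial markers lay below the controls in 4 of 8 genes and above in 0, against 23.8% and 24.3% of all genes, with a median of −0.47, and *PECAM1* was at 9.72 to 13.7 RPKM in the controls and 9.68 RPKM in the hyperinsulinemic monkey. *ESAM*, also among the 4, was below every control only after TMM scaling. Of 6 macrophage markers, 4 lay below and 0 above, beside the same shares of all genes, with a median of −1.17. *C1QC*, a complement chain, was at 19.0, 11.0, 5.76 and 9.09 RPKM in the controls and 3.35 RPKM in the hyperinsulinemic monkey (−1.92, standard error 0.662, adjusted p 0.496). *LYVE1*, a receptor of resident macrophages and lymph vessels, was at 1.08 to 3.52 RPKM and 0.852 RPKM (−1.79), *CSF1R*, the growth factor receptor of macrophages, at 2.97 to 8.90 RPKM and 2.99 RPKM (−1.05), and *CD68* at 1.66 to 5.37 RPKM and 1.54 RPKM (−1.28). For *CSF1R* and *CD68* control rhesus_940313 lay next to the hyperinsulinemic monkey, and *CSF1R* was below that control only after TMM scaling. The summed macrophage level was 13.1 RPKM in the hyperinsulinemic monkey, 15.0 RPKM in rhesus_940313 and 28.5 to 46.8 RPKM in the other controls. Without rhesus_940313 the median was −1.42. *MRC1*, at 0.315 to 1.18 RPKM in the controls and 0.1004 RPKM in the hyperinsulinemic monkey, and *MSR1*, at 0 in 3 controls, were below the filter.

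Of 20 extracellular matrix genes, 4 lay below every control and 0 above, against 23.8% and 24.3% of all genes, with a median of −0.38, or −0.61 without control rhesus_940313. *THBS4*, a matrix protein of tendon and muscle attachments, was at 19.4, 57.5, 14.1 and 34.7 RPKM in the controls and 5.13 RPKM in the hyperinsulinemic monkey (−2.79, standard error 0.762, adjusted p 0.460). *DCN*, a collagen-binding proteoglycan, was at 114 to 141 RPKM and 93.2 RPKM (−0.64). *MMP2*, a gelatinase, and *TIMP2*, its inhibitor, had log2 differences of −0.97 and −1.24, and in both control rhesus_940313 lay just above the hyperinsulinemic monkey. Of the 4 tendon markers tested, 3 lay below every control and 0 above, beside the same shares of all genes. Their median was −2.83, or −2.47 without rhesus_940129. Tendon mRNA followed the same order of animals as slow fiber mRNA, with a summed level of 82.3 RPKM in control rhesus_940129, 17.7 to 52.0 RPKM in the other controls and 7.08 RPKM in the hyperinsulinemic monkey. Fibroblast markers had 1 of 8 above and 3 below, against 24.3% and 23.8% of all genes. Their median was −0.52, or −0.66 without rhesus_940313. What part these cell type markers had in any other result was not tested.

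Immediate early genes, which respond to acute signals and to handling of tissue, had 3 of 9 below, close to the 23.8% of all genes, and 0 above, with a median of −1.14. *ATF3* was at 5.25, 9.67, 4.28 and 11.8 RPKM in the controls and 2.86 RPKM in the hyperinsulinemic monkey (log2 difference −1.63, standard error 0.613, adjusted p 0.497), and *KLF6* at 2.48 to 4.44 RPKM and 1.76 RPKM (−1.14). *NR4A3*, an exercise-induced nuclear receptor, and *JUNB* lay within the control range, at 0.594 RPKM against 0.432 to 2.61 RPKM and 3.76 RPKM against 2.82 to 10.47 RPKM. In the interferon response list, 2 of 7 lay above and 4 below, against 24.3% and 23.8% of all genes, with a median of −0.998. Among those above, *IFIT1* was at 0.877 to 1.004 RPKM in the controls and 1.96 RPKM in the hyperinsulinemic monkey. *IFIT1* passed the low-level filter only through the hyperinsulinemic monkey. *OAS1*, an antiviral enzyme, had 0 reads in the hyperinsulinemic monkey and 37 to 259 reads in the controls, at 0.651, 2.42, 4.07 and 1.12 RPKM. With the same limit of 3 reads for a count of 0, it was at least 38.1-fold lower, with an edgeR adjusted p of 0.344. *IFI27* was at 20.2 to 47.3 RPKM and 18.2 RPKM (−1.24) and *MX1* at 1.04 to 2.67 RPKM and 0.821 RPKM (−1.21).

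The other genes among the 12 below were *NUDT5* and *TPSD1*. *NUDT5*, a hydrolase of ADP-ribose, was at 2.72, 1.71, 6.13 and 3.06 RPKM in the controls and 0.335 RPKM in the hyperinsulinemic monkey (log2 difference −3.51, standard error 0.756, adjusted p 0.344). Its level in the hyperinsulinemic monkey rested on 37 reads. *NUDT5* overlaps *SEC61A2* and *CDC123* on the opposite strand, and the counting step is not stated to use strand. *TPSD1*, a tryptase of mast cells, was at 2.70, 2.63, 2.36 and 2.52 RPKM in the controls and 0.467 RPKM in the hyperinsulinemic monkey, from 14 reads (−2.61, 0.701, adjusted p 0.448). Tryptase genes resemble each other closely, so its reads may belong in part to a paralog.

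Of the remaining lists, heat shock and unfolded protein genes had 5 of 10 above and 1 below (median 0.14), clock genes 3 of 10 above and 1 below (0.29), and the hypoxia, metal and oxidative list, which holds *CA3*, 2 of 6 above and 1 below (0.18). Adipocyte markers had 0 of 8 outside the control range (−0.30) and erythroid markers 0 of 3 (−0.04). Of all genes, 24.3% lay above and 23.8% below. Only 2 nerve, 1 satellite cell and 1 neutrophil marker passed the filter, all within the control range, and 0 T and NK cell markers did.

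**Figure D4:**
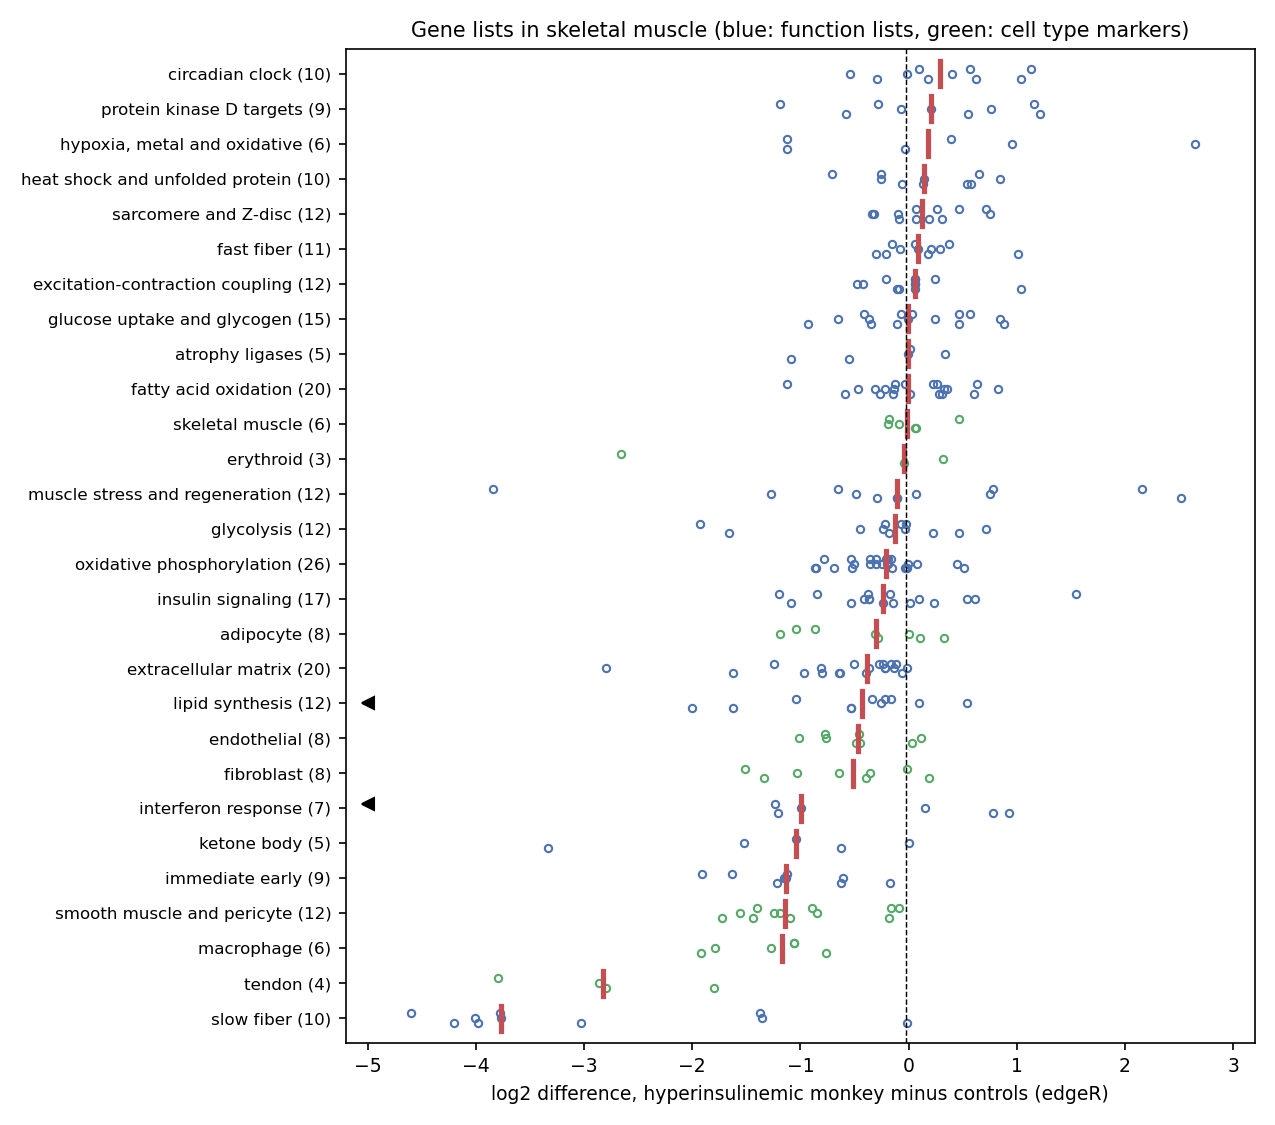
Circles are the edgeR log2 differences of the hyperinsulinemic monkey from the 4 controls for every tested member of each function and cell type list with at least 3 tested members (number in brackets; *BDH1*, *ANKRD1* and *CA3*, the markers of the comparison, are not drawn as a list), red bars the list medians and the dashed line the median of all genes, −0.03. Slow fiber and tendon lists lie furthest to the left, at −3.77 and −2.83, the clock list lies furthest to the right, at 0.29, and the black triangles are *PLIN5* and *OAS1*, which had 0 reads in the hyperinsulinemic monkey.

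DESeq2 called genes outside these lists as well, all of them outside the control range. *SYNM*, an intermediate filament protein, was at 70.7, 86.6, 76.7 and 69.8 RPKM in the controls and 203 RPKM in the hyperinsulinemic monkey (DESeq2 adjusted p 0.000803, edgeR 0.342). *NMRK2*, a muscle kinase that makes a precursor of NAD, was at 237 to 390 RPKM and 113 RPKM (0.000803 and 0.344). *MAOB*, monoamine oxidase B, was at 12.3, 19.7, 7.26 and 11.96 RPKM and 2.24 RPKM (4.68e-05 and 0.342). *VSIG4*, a complement receptor of resident macrophages, was at 3.73, 2.57, 0.924 and 3.48 RPKM and 0.222 RPKM (0.000803 and 0.404). These 4 were chosen after their values were seen, and edgeR called none of them.

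Whether the muscle differences also held in adipose tissue of the same animals was asked by the difference between the tissues, fitted over 11270 genes. EdgeR called 0 of 11270 genes (0%), and 633 (5.62%) had an unadjusted p under 0.05. DESeq2 called 11 genes (0.0976%), of which *SLC1A4* was the only one among those named above. Its difference in muscle minus that in adipose tissue was −3.87 (95% interval −5.34 to −2.40), with an adjusted p of 0.391 in edgeR and 0.00176 in DESeq2. Among the other named genes whose interval excluded 0 were *AMT*, at −3.29 (−5.15 to −1.43), *NUDT5*, at −3.22 (−5.14 to −1.29), *RIOK2*, at 2.91 (1.04 to 4.78), *TPM3*, at −1.99 (−2.96 to −1.01), and *ACTA2*, at −1.69 (−2.85 to −0.53), none of them past the threshold in either tool. The interval also excluded 0 for *CA3*, at 6.59 (1.39 to 11.8), and *MYL3*, at −4.46 (−7.91 to −1.02). Neither passed the threshold in either tool, and adipose tissue held almost no *CA3*. Further named genes whose interval excluded 0 include *OAS1*, *XIRP2* and *TBC1D1*. For *BDH1*, *SPP1*, *CRABP2* and *KCNAB2* the interval of this difference included 0. Skeletal muscle mRNA was present at a low level in adipose libraries too, with *TNNT1* at 1.68 to 9.92 RPKM in the controls and 0.643 RPKM in the hyperinsulinemic monkey.

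**Figure D5:**
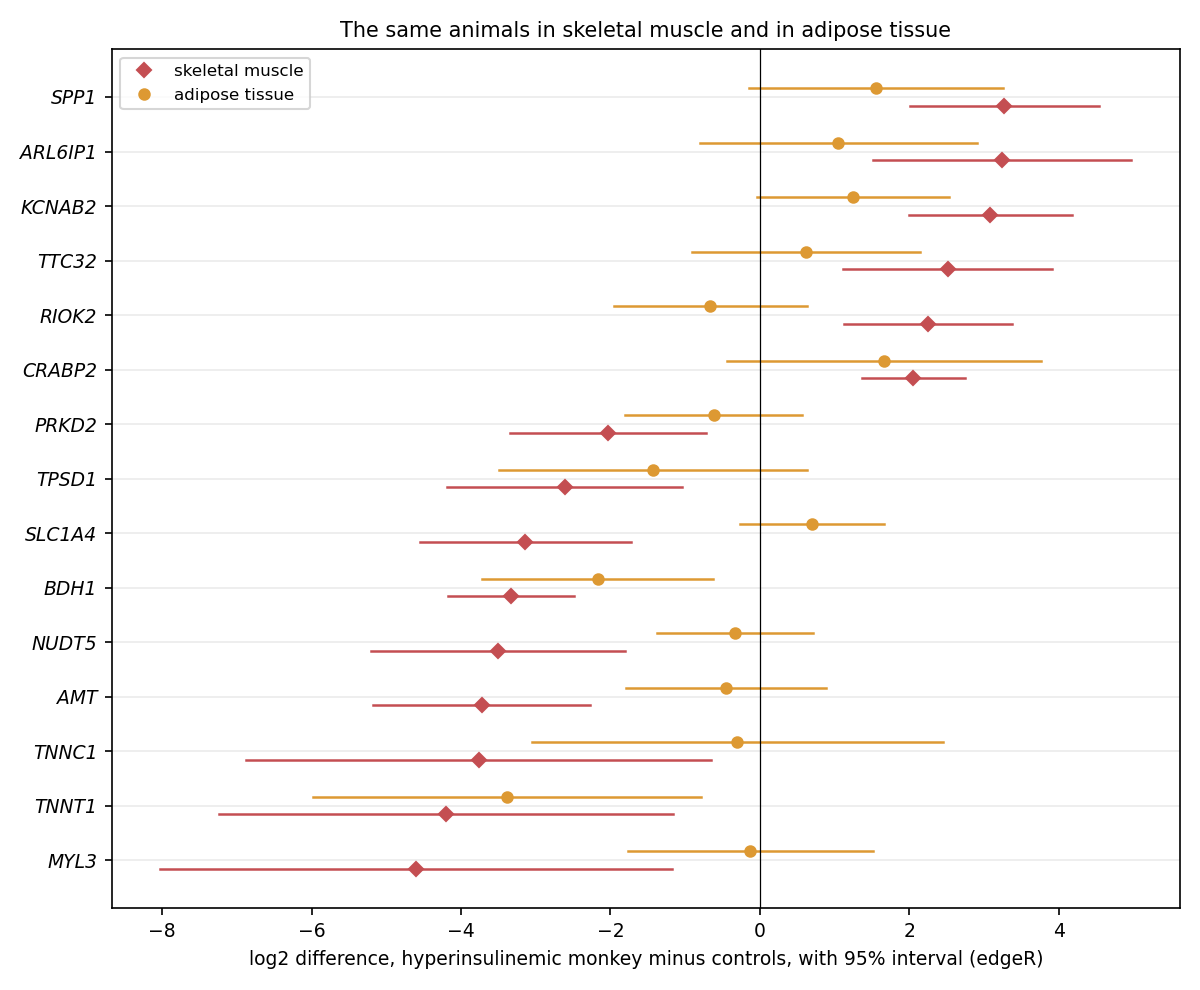
Log2 differences of the hyperinsulinemic monkey from the 4 controls with 95% intervals from edgeR, in skeletal muscle (red diamonds) and in adipose tissue (orange circles). Drawn are *PRKD2* and those of the 12 genes furthest above and the 12 furthest below that were tested in both tissues. *OAS1*, with 0 reads in muscle of the hyperinsulinemic monkey, is not drawn. *BDH1* lies to the left of 0 in both tissues, at −3.33 and −2.17, while *SLC1A4* lies at −3.14 in muscle and 0.70 in adipose tissue.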

How the data were processed

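Strand-specific (dUTP) poly(A) libraries of skeletal muscle and adipose tissue of 5 rhesus monkeys were sequenced on an Illumina HiSeq, 1 per animal and tissue. The authors mapped the reads with TopHat (1.2.0 in the submitters' processing notes, another release in the paper) and kept uniquely mapped reads. The counting tool, genome build and annotation were not given in the sources used here. The deposited counts are read counts per gene for 28595 Ensembl genes, and the RPKM values deposited beside them equal these counts divided by the longest transcript's length and by the library's mapped total. Symbols were found for 54.4% of genes and 74.6% of those tested. Gene starts are counted from 1.

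Counts were tested with edgeR 4.0.16 (TMM, quasi-likelihood, R 4.3.3), in the 5 muscle libraries, where the mean had to reach 1 RPKM, and in all 10 libraries for the difference between tissues. Calls were made at an adjusted p under 0.05. The gap to the controls was taken on log2(CPM + 0.5). Scripts were tested on simulated data. Both tissues come from the same animals, so the animal pairs the libraries, and it was used as a block in an alternative. Other alternatives were DESeq2 1.42.0, limma 3.58.1 with a pseudocount of 1 or 0.1, other filters, scalings and variance estimates, and leaving out each control. Replicates are separate animals.

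The members and the gene lists, 21 of function and 13 of markers, the markers of the comparison included, were chosen with earlier results of these data known. Named are the protein kinase D genes, *BDH1*, *ANKRD1* and *CA3*, the 12 genes with the largest gap each way that have a symbol, and up to 4 members with the smallest p of each list described. Of several genes with 1 symbol, the most abundant was used. Genes named after their values were seen are marked as such. Lists are described by counts and medians, with no set test. Some members of the lists are counted but not reported by name here.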

Additional observations from a re-analysis of the deposited data

Results flagged for a closer look

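In a group of 4 controls, a sample was singled out where its gap to the nearest other control, divided by the range of the group, passed Dixon's 95% limit. This was met in 13 of 99 named genes and 1 of 29 lists, and chance alone gives about 1 in 20.

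Control rhesus_940129 stood above the other controls in slow fiber genes, at 648 RPKM of *MYL3*, 1145 RPKM of *MYL2*, 651 RPKM of *TNNT1*, 1530 RPKM of *TNNC1* and 531 RPKM of *MYH7*. Control rhesus_940313 stood above the others in *PVALB*, at 923 RPKM, and *TPM1*, at 2438 RPKM, and below them in *NR4A3*, at 0.432 RPKM, and in the median deviation of the fibroblast markers, at −0.58 on the log2 scale. Control rhesus_920401 was highest in *MYBPC1*, at 608 RPKM, and *PFKFB3*, at 38.8 RPKM, and lowest in *MAP2K6*, at 0.551 RPKM. Control rhesus_950509 was lowest in *SLC2A4*, at 112 RPKM, and *BCAT2*, at 12.3 RPKM. The cause of these deviations was not tested.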

How the results depend on the processing

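The number of genes called in muscle was 0 with a filter at a mean of 5 RPKM and with all 10 libraries in one fit, 1 with median-of-ratios scaling, with limma on log2(RPKM + 1) or log2(RPKM + 0.1) and with robust variance, 3 with scaling to the mapped totals, 10 with no filter and 88 with DESeq2. With each control left out in turn it was 0 to 14, and 14 only without rhesus_940313. Of the named genes, none was called by edgeR, 1 with median-of-ratios scaling, each limma fit and robust variance, 3 with mapped totals, 8 with no filter and 28 with DESeq2, and 0 to 6 with a control left out, 6 being without rhesus_940313. Of the members of the function and marker lists these were 1, 3, 4 and 12, and 0 to 4, with 4 being without rhesus_940313. The lists compiled after the values were seen are not in these counts.

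The genes above every control numbered 2016, with 3453 under no filter, 1024 under the filter at 5 RPKM, 2900 when scaled to mapped totals, and 2278 to 2429 with a control left out. Those below numbered 1974, with 3044 under no filter, 975 under the filter at 5 RPKM, 1260 when scaled to mapped totals, and 2250 to 2482 with a control left out. A filter tests more or fewer genes by its construction, and the cause of the other changes was not tested. With the animal as a replicate block, the difference between tissues called 0 genes, as without the pairing, and 592 genes had an unadjusted p under 0.05 against 633. DESeq2 called 11.

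No named gene changed direction in any setting. Over all alternatives 1178 values of named genes kept their side of the threshold and 49 came to pass it, and 327 list medians moved by less than the spread of the controls and 50 by more. At 14 to 42 reads, counting error limits *AMT*, *TPSD1*, *SLC1A4*, *NUDT5* and *PRKD2* in the hyperinsulinemic monkey.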
